A study of Mus musculus with 16 samples.

Results

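The insulin and insulin-like growth factor (IGF) genes described here are 10 genes measured in mouse hippocampus: the ligand Igf1, the receptors Igf1r and Insr, the receptor adaptors Irs1 and Irs2, and the IGF binding proteins Igfbp2, Igfbp4, Igfbp5, Igfbp6 and Igfbp7. They were taken by name from a table of 22572 gene names, and each of the 10 names belonged to 1 locus. RNA sequencing was done on hippocampus of male C57BL/6 mice, either wild type (WT) or lacking the X-linked gene Bgn (Bgn0/-, called BgnKO here), which encodes the small leucine-rich proteoglycan biglycan. From 3 months of age the mice drank regular water or water with 15% (w/v) fructose for 6 weeks. The 4 groups, WT on water, WT on fructose, BgnKO on water and BgnKO on fructose, had 4 libraries each, and fructose was the only treatment named. The labels do not say that the 4 libraries of a group came from separate animals, so the p-values measure the spread between these libraries.

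Insulin and IGF1 bind the related receptor tyrosine kinases encoded by Insr and Igf1r. The activated receptors phosphorylate the adaptors IRS1 and IRS2, which recruit phosphoinositide 3-kinase and so turn on AKT, mTOR complex 1 and the inhibition of FOXO factors. IGF binding proteins are secreted, hold IGF1 and IGF2 outside the cell and set how much of them reaches the receptor. In brain, Igf1 is made by some neurons and by glia, Igf2 and Igfbp2 are made strongly by choroid plexus and meninges, and Igfbp7 is a vascular gene.

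Irs2 was the only one of the 10 genes to pass the main test in any of the 7 comparisons made, so the sequence before its start is shown, with that of its paralog Irs1, which did not pass. Both are the 250 bases before the RefSeq transcript start on GRCm38.p6, written 5′ to 3′ on the gene's own strand, and the capitals mark CACGTG, the palindromic E-box core. The Irs2 window is chr8:11008930-11009179 and the Irs1 window is chr1:82291440-82291689, both on the minus strand.
Irs2: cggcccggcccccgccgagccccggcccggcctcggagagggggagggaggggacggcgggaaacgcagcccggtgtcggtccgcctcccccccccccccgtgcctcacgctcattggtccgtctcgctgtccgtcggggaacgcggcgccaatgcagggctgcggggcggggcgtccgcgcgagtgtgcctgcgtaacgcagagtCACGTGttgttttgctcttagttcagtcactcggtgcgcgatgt
Irs1: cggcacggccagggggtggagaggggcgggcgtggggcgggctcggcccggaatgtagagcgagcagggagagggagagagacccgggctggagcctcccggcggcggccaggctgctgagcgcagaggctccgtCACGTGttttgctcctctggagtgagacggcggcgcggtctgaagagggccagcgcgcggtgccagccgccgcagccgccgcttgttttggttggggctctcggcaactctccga
In Irs2 the CACGTG lay 44 to 39 bases before the start, and in Irs1 it lay 115 to 110 bases before it. Counting both strands, CACGTG was in 6.02% of 32851 windows of this length and in 3 of the 9 genes of the set that have a window (Irs1, Irs2 and Igfbp2). The longest stretches the Irs1 and Irs2 windows shared on this strand were 2 of 10 bases. GTCACGTGTT holds the CACGTG and was in 23 windows, or 0.07%. TGTTTTGCTC, which overlaps its end in both windows, was in 21 windows, or 0.0639%. Both were chosen after the sequences were seen. GGGCGG, the core of the GC box bound by SP factors, was in 5 of the 9 genes with a window and in 32.7% of all windows. TATAAA was in the windows of Igfbp4 and Igfbp6 and in 12.4% of all. The cyclic AMP response element TGACGTCA was in 1.55% of all windows and the forkhead motif TGTTTAC in 3.17%, and neither was in any of the 9. These are matches of letters and say nothing of binding.

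On GRCm38, with gene bounds from GENCODE, Irs2 is at chr8:10984681-11008458 on the minus strand, and the RefSeq start used above lies upstream of that bound. Irs1 is at chr1:82233101-82291416 (minus), Insr at chr8:3122061-3279617 (minus), Igf1r at chr7:67952827-68233668 (plus) and Igf1 at chr10:87858265-87937042 (plus). Igfbp2 is at chr1:72824503-72852474 (plus) and Igfbp5 at chr1:72857932-72874884 (minus). Igfbp7 is at chr5:77349240-77408041 (minus), Igfbp4 at chr11:99041244-99054392 (plus) and Igfbp6 at chr15:102144362-102149511 (plus). The FPKM values are totals per locus and cannot be assigned to exons or transcripts.

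Expression is given in FPKM, a fragment count scaled by transcript length and by library size, which carries no read depth. Summed over all named genes they came to 342721 to 376209 per library, and 12343 to 12885 names reached 1 FPKM in a library. Genes were tested if they averaged 1 FPKM or more across all 16 libraries, which held for 12648 genes, the 10 described here included. The name of the targeted gene Bgn covers 2 loci, which were summed. Its FPKM ran from 4.46 to 7.60 in BgnKO and from 5.42 to 24.2 in the libraries labelled WT. Whether the measured part lies in the deleted sequence is not known. Among those labelled WT, fructose replicate 1 had 5.42 FPKM of Bgn, a value within the BgnKO range. Averaged over both drinks, Bgn was lower in BgnKO by a log2 fold of -1.08 (SE 0.24, adjusted p = 0.0168, limma). The 4 libraries numbered replicate 1 stood apart from the other 12: for 2667 of the 12648 genes (21.1%) they did not overlap with them. WT fructose replicate 1 and BgnKO fructose replicate 4 were the lowest and the highest library in summed choroid plexus markers, at 320 and 10200 FPKM. Results are therefore also given with a term for replicate 1 in the model, for replicates 2 to 4 alone, or without those 2 libraries. None of the 7 hippocampal neuron markers looked at was at 0 in any library, and their sum was 777 to 1079 FPKM.

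Measured per length, the binding protein genes Igfbp2, Igfbp5 and Igfbp4 were the most abundant of the set and the ligand gene Igf1 the least. The adaptor gene Irs2 was above the binding protein gene Igfbp6 in all 16 libraries. The mean FPKM over the 16 libraries was 102.9 for Igfbp2, 56.8 for Igfbp5, 45.2 for Igfbp4, 28.6 for Igfbp7 and 25.4 for Irs2. It was 10.8 for Igfbp6, 7.22 for Igf1r, 5.66 for Insr, 4.55 for Irs1 and 1.50 for Igf1. Most neighbours in this order were separated in 13 or more of the 16 libraries, but Igfbp7 was above Irs2 in 8 of 16, so these 2 levels could not be ordered. Igf1r exceeded Insr in every library, by a ratio of 1.16 to 1.46 (median 1.25). Irs2 exceeded Irs1 4.49 to 7.79 times. The summed FPKM of the 5 binding proteins was 224 ± 34.5 (SD, n = 4) in WT on water and 212 ± 53.0 in WT on fructose. It was 250 ± 11.98 in BgnKO on water and 292 ± 102 in BgnKO on fructose, so the 4 groups overlapped.

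**Figure D1:**
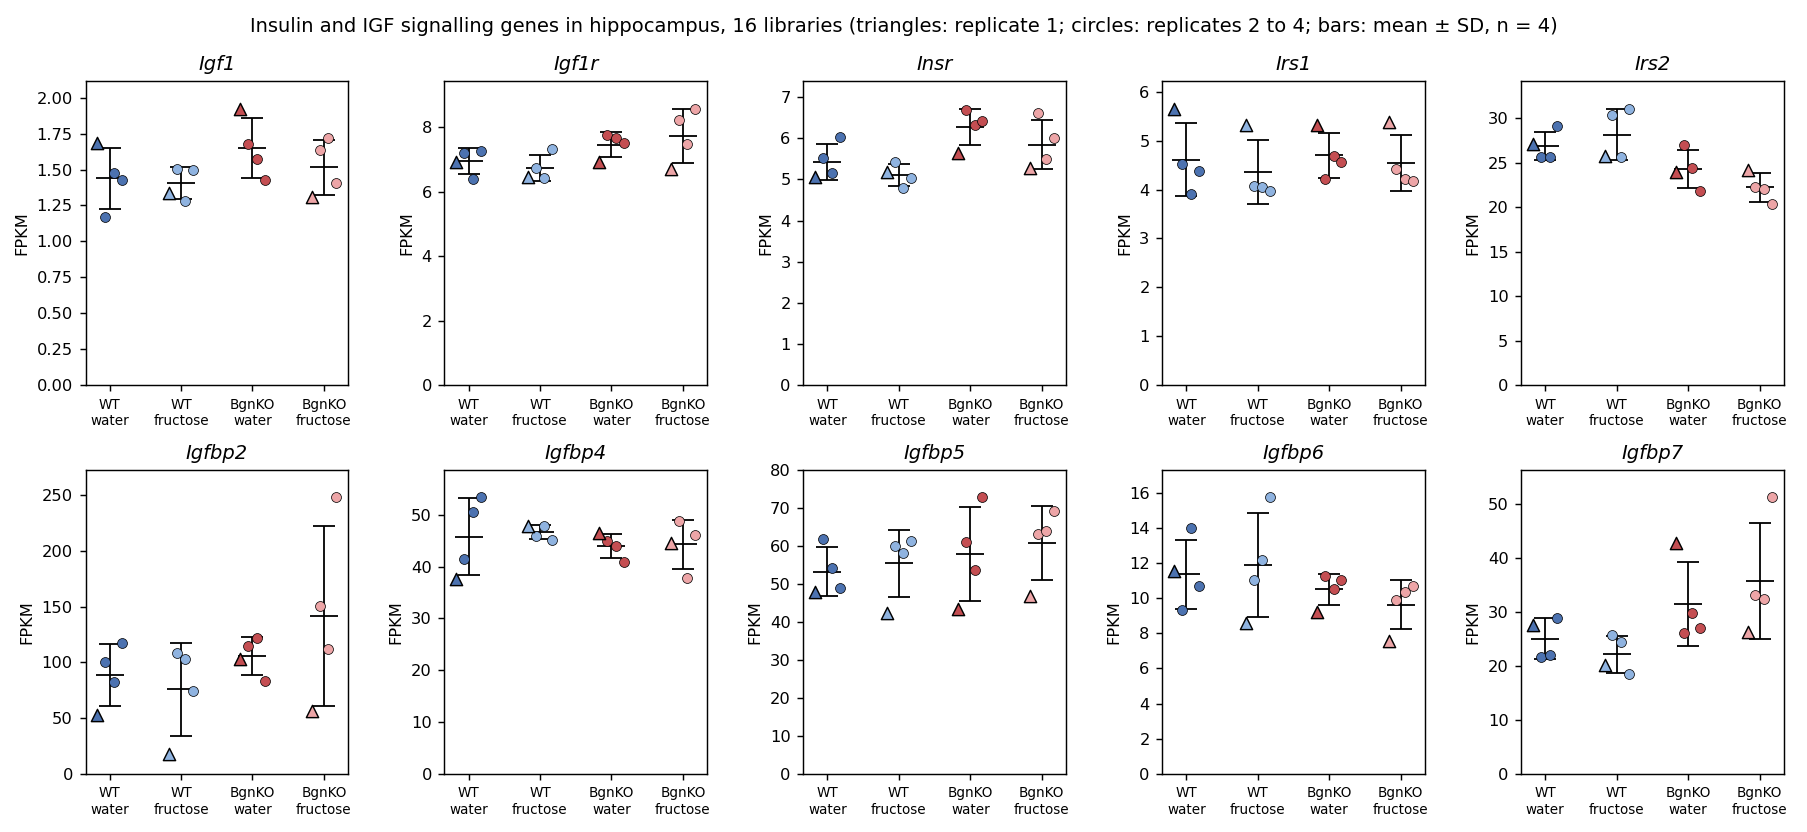
FPKM of the 10 genes in each of the 16 libraries, 1 panel per gene with its own axis from 0, for WT and BgnKO on water and on fructose. Triangles are replicate 1, circles replicates 2 to 4, and bars the mean ± SD of 4 libraries. Irs2 lies lower in BgnKO on fructose (20.3 to 24.2) than in WT on fructose (25.6 to 31.0), the Irs1 triangles lie above every circle, and Igfbp2 spreads from 17.3 to 248.

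Irs2, the adaptor that couples both receptors to phosphoinositide 3-kinase, was lower in BgnKO than in WT hippocampus on fructose, by 20.3% on the FPKM + 1 scale. In WT on fructose Irs2 was at 25.7, 30.3, 25.6 and 31.0 FPKM in replicates 1 to 4, a mean of 28.2 ± 2.90 (SD, n = 4). In BgnKO on fructose it was at 24.2, 22.3, 22.0 and 20.3 FPKM, a mean of 22.2 ± 1.61. All 4 BgnKO libraries were below all 4 WT libraries, as was the case, in either direction, for 11.0% of all tested genes. The log2 fold was -0.33 (SE 0.08, 95% interval -0.50 to -0.15, limma adjusted p = 0.0408). Irs2 was thus 1 of 10 genes called, where 475 of 12648 (3.76%) were called over the whole table in either direction.

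On water the groups were closer. Irs2 was at 27.1, 25.6, 25.65 and 29.1 FPKM in WT and at 23.9, 27.0, 24.4 and 21.8 FPKM in BgnKO. BgnKO replicate 2 reached into the WT range, and 4.01% of all tested genes had no overlap on water. The log2 fold was -0.14 (95% interval -0.32 to 0.03, adjusted p = 1), and no gene of the set passed on water, where 0.387% of all genes did and 1 of the 10, Insr, had an unadjusted p under 0.05. The difference between the 2 drinks did not pass a test of its own (interaction -0.19, 95% interval -0.43 to 0.06, adjusted p = 0.999), so the genotype difference is not shown to depend on fructose. Averaged over both drinks the log2 fold of Irs2 was -0.23 (SE 0.06, 95% interval -0.36 to -0.11, adjusted p = 0.0320), and all 8 BgnKO libraries were below the mean of the 8 WT libraries. Again 1 of 10 genes was called, against 4.99% of all genes.

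The size of the Irs2 difference on fructose moved little, from -0.41 to -0.28 over all alternatives, but the adjusted p lies close to the threshold. It was 0.0147 with a term for replicate 1 and 0.0219 in replicates 2 to 4 alone. Without WT fructose replicate 1 and BgnKO fructose replicate 4 it was 0.108, with the log2 fold still at -0.33. Leaving out WT water replicate 2 or 3 gave 0.0509 and 0.0524, WT fructose replicate 2 or 4 gave 0.119 and 0.126, and BgnKO water replicate 3 gave 0.0560. Leaving out BgnKO fructose replicate 2, 3 or 4 gave 0.0576, 0.0907 and 0.133. The averaged difference missed the threshold without any 1 of 8 libraries, with adjusted p between 0.0534 and 0.0716: WT water 4, WT fructose 2 or 4, BgnKO water 1, 3 or 4, and BgnKO fructose 3 or 4.

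Markers of several cell types differed in the same libraries. In BgnKO against WT on fructose, all 7 hippocampal neuron markers had lower values and 1, Wfs1, was called. Their sums overlapped, at 905 to 1079 FPKM in WT and 777 to 1059 FPKM in BgnKO. Of 9 oligodendrocyte markers 6 had higher and 3 lower values, with 0 called. Of 9 interneuron markers 2 had higher and 7 lower values, with 0 called. All 10 astrocyte markers had higher values and 4 were called (Aqp4, Fgfr3, Gfap and Gja1), with sums of 1318 to 1439 FPKM in WT and 1480 to 2019 FPKM in BgnKO. All 10 microglial markers had higher values with 0 called by limma in the main model, 5 at an unadjusted p under 0.05 and 6 called with the term for replicate 1. Their sum was 208 to 261 FPKM in WT and 275 to 360 FPKM in BgnKO on fructose. Over all tested genes on fructose 3.76% were called in the main model and 17.3% with the term for replicate 1. An unadjusted p under 0.05 in the main limma model held for 21.3% of them. None of the markers in these lists was at 0. Their part in the Irs2 result was not tested, and in whole tissue fewer cells of a type and less RNA per cell cannot be told apart.

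The receptors Insr and Igf1r leaned to higher values in BgnKO without passing the main test. Insr, the insulin receptor, was at 5.05, 5.51, 5.14 and 6.02 FPKM in WT on water and at 5.64, 6.69, 6.33 and 6.43 FPKM in BgnKO on water. On fructose it was at 5.18, 5.43, 4.79 and 5.03 FPKM in WT and at 5.27, 6.60, 5.49 and 6.01 FPKM in BgnKO. The ranges overlapped on each drink. All 8 BgnKO libraries were above the mean of the 8 WT libraries, 5.269 FPKM, though BgnKO fructose replicate 1 only just so at 5.272 FPKM. The averaged log2 fold was 0.17 (SE 0.05, 95% interval 0.06 to 0.28, adjusted p = 0.0765). It passed with a term for replicate 1 (adjusted p = 0.0186) and in replicates 2 to 4 alone (0.20, adjusted p = 0.0319), but not without WT fructose replicate 1 and BgnKO fructose replicate 4 (0.17, adjusted p = 0.146).

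Igf1r, the IGF1 receptor, was at 6.93, 7.21, 6.39 and 7.27 FPKM in WT on water and at 6.92, 7.75, 7.67 and 7.52 FPKM in BgnKO on water. On fructose it was at 6.44, 6.75, 6.43 and 7.32 FPKM in WT and at 6.69, 8.24, 7.47 and 8.56 FPKM in BgnKO. In each BgnKO group replicate 1 was the lowest library and lay among the WT values. The averaged log2 fold was 0.13 (SE 0.05, 95% interval 0.02 to 0.24, adjusted p = 0.150), with 7 of 8 BgnKO libraries above the mean of the 8 WT libraries. With a term for replicate 1 the adjusted p was 0.0421, and in replicates 2 to 4 alone the log2 fold was 0.17 (adjusted p = 0.0418). Without WT fructose replicate 1 and BgnKO fructose replicate 4 it was 0.10 (adjusted p = 0.322), and on fructose the log2 fold then went from 0.17 to 0.11 (adjusted p = 0.521). Across the 16 libraries the log2 values of Igf1r and Insr had a Pearson correlation of 0.77, and of 0.75 in the 12 libraries of replicates 2 to 4, given as a description since the libraries share groups and the replicate 1 split.

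Igfbp7, a secreted protein of vessel walls that binds IGFs weakly, had the widest gap between genotypes on fructose after Igfbp2. It was at 20.1, 25.6, 24.5 and 18.4 FPKM in WT on fructose and at 26.3, 33.1, 32.3 and 51.2 FPKM in BgnKO on fructose. The groups did not overlap, as held for 11.0% of all tested genes, and WT replicate 2 and BgnKO replicate 1 differed by less than 1 FPKM. The log2 fold was 0.64 (SE 0.19, 95% interval 0.23 to 1.04), and the adjusted p of 0.0714 missed the threshold. On water it was at 27.6, 21.5, 22.0 and 28.9 FPKM in WT and at 42.8, 26.0, 29.8 and 26.9 FPKM in BgnKO, which overlapped (log2 fold 0.30, adjusted p = 1). Averaged over drinks the log2 fold was 0.47 (95% interval 0.18 to 0.75, adjusted p = 0.0565), with all 8 BgnKO libraries above the mean of the 8 WT libraries.

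With a term for replicate 1 the adjusted p for Igfbp7 was 0.0347 on fructose and 0.0285 averaged. In replicates 2 to 4 alone the log2 fold on fructose was 0.72 (adjusted p = 0.0284). Without WT fructose replicate 1 and BgnKO fructose replicate 4 it was 0.41 (adjusted p = 0.295). The 8 endothelial markers tested all had higher values in BgnKO on fructose, none called by limma in the main model and 2 with an unadjusted p under 0.05. With the term for replicate 1, 4 of the 8 were called (Abcb1a, Emcn, Flt1 and Kdr), and in replicates 2 to 4 alone 3 were (Emcn, Flt1 and Kdr). Their sum was 65.0 to 80.4 FPKM in WT and 65.7 to 103 FPKM in BgnKO on fructose. Of 8 pericyte and smooth muscle markers, 5 had higher and 3 lower values in BgnKO on fructose, with 0 called in the main model. In replicates 2 to 4 alone 1 of them was called (Pdgfrb). Summed, these markers came to 82.4 to 152 FPKM in WT and 80.0 to 217 FPKM in BgnKO on fructose. The 12 choroid plexus and the 12 meningeal and fibroblast markers also all had higher values in BgnKO on fructose, with 0 called in the main model. In BgnKO on water, Igfbp7 was highest in replicate 1, which had the lowest endothelial sum (69.8 FPKM) and the highest choroid plexus sum (6943 FPKM). In WT on water, Igfbp7 was lowest in replicate 2, which had the highest choroid plexus sum (6558 FPKM). The part of these lists in the Igfbp7 values was not tested.

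With the term for replicate 1, Irs2 and Igfbp7 were thus called on fructose, 2 of 10 against 17.3% of all genes. Averaged over drinks Igf1r, Insr and Igfbp7 were called higher and Irs2 lower, 4 of 10 against 18.0% of all genes. The same genes were called in replicates 2 to 4 alone, where 10.9% and 12.6% of all genes passed. In the main model 7 of the 10 genes had higher and 3 lower values in BgnKO on fructose, with a median log2 fold of 0.10 beside -0.01 over all tested genes. On water the split was also 7 and 3, with a median of 0.10 beside -0.001 over all tested genes.

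**Figure D2:**
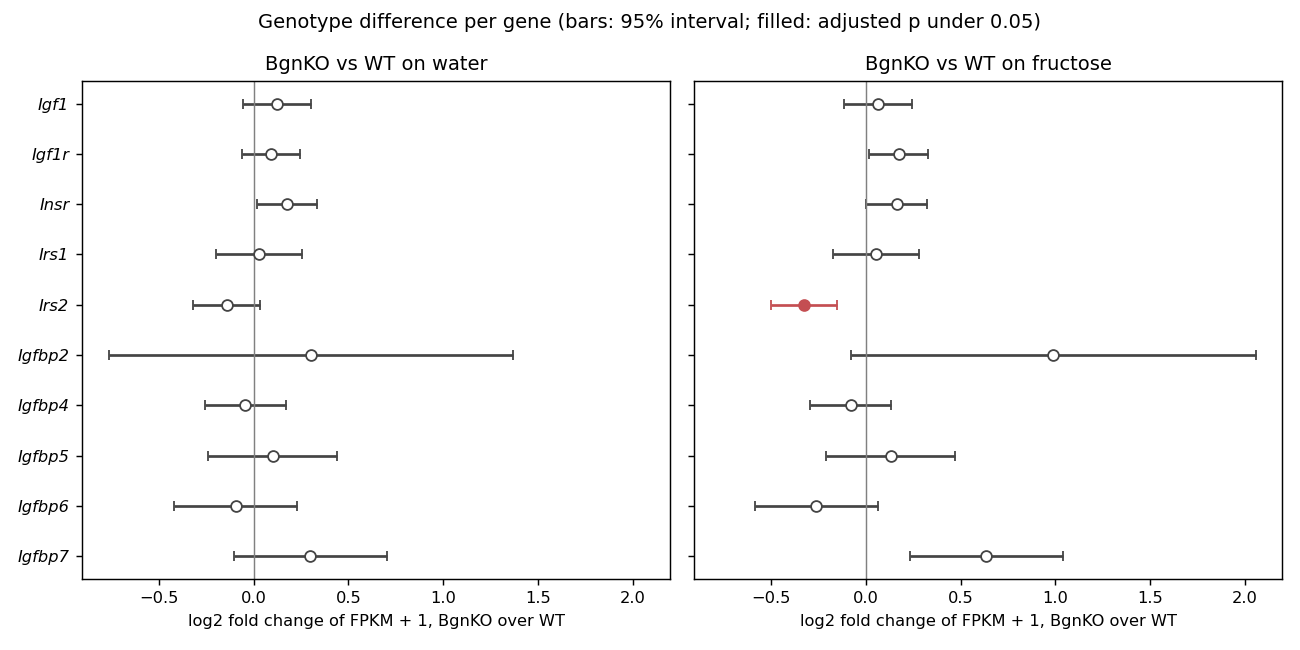
Log2 fold change of FPKM + 1, BgnKO over WT, for each of the 10 genes on water (left) and on fructose (right), with 95% intervals from limma. The filled point is the only adjusted p under 0.05, Irs2 on fructose at -0.33. The Igfbp2 interval is the widest, from -0.08 to 2.06 on fructose.

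Igfbp2, the most abundant IGF binding protein of the set, was also the most variable. It was at 52.5, 100.7, 82.6 and 117 FPKM in WT on water and at 17.3, 108.8, 102.6 and 74.7 FPKM in WT on fructose. In BgnKO it was at 103.0, 115, 122 and 83.1 FPKM on water and at 56.4, 150.6, 112 and 248 FPKM on fructose. All 4 groups overlapped, the lowest value was WT fructose replicate 1 and the highest BgnKO fructose replicate 4. The SD of its log2 values within groups was 0.80, larger than that of 99.4% of tested genes, whose median was 0.15. Its log2 fold in BgnKO on fructose was 0.99 (SE 0.50, 95% interval -0.08 to 2.06, adjusted p = 0.272). With a term for replicate 1 the adjusted p was 0.0562, and without those 2 libraries the log2 fold was 0.06 (adjusted p = 0.937).

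Igfbp2 followed the libraries more than the groups. The genes whose log2 values were most like those of Igfbp2 over the 16 libraries were Igf2 (Pearson correlation 0.97), Pcolce (0.96), which encodes an enhancer of procollagen processing, and Tcn2 (0.95), which encodes the vitamin B12 carrier transcobalamin. In the 12 libraries of replicates 2 to 4 the correlations were 0.87, 0.94 and 0.92. These 3 were picked as the highest of all tested genes, so they carry no p-value. The summed FPKM of 12 choroid plexus markers was 2776 to 6558 in WT on water, 320 to 4900 in WT on fructose, 950 to 6943 in BgnKO on water and 2914 to 10200 in BgnKO on fructose. That of 12 meningeal and fibroblast markers was 73.5 to 162, 38.6 to 153, 155 to 178 and 71.2 to 267. The 12 meningeal markers had higher values in BgnKO on each drink. The 12 choroid plexus markers had higher values on fructose, but on water 6 had higher and 6 lower values. In replicates 2 to 4 alone all 12 choroid plexus markers were lower on water. In the main limma model 0 of either list were called on either drink. On fructose 2 meningeal and 3 choroid plexus markers had an unadjusted p under 0.05, beside 21.3% of all tested genes. With the term for replicate 1, 2 meningeal markers (Foxd1 and Ogn) and 0 choroid plexus markers were called on fructose. With that term 17.3% of all tested genes were called on fructose. In that model 7 choroid plexus markers had an unadjusted p under 0.05 on fructose. Foxd1 and Ogn were also called on fructose in replicates 2 to 4 alone, beside 10.9% of all tested genes. Averaged over drinks in those replicates, 6 meningeal markers were called (Col1a1, Col1a2, Col3a1, Foxd1, Ogn and Slc22a6), beside 12.6%. Choroid plexus markers called in these 2 comparisons were 0. No marker of either list was at 0 in any library, and their part in the Igfbp2 values was not tested.

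**Figure D3:**
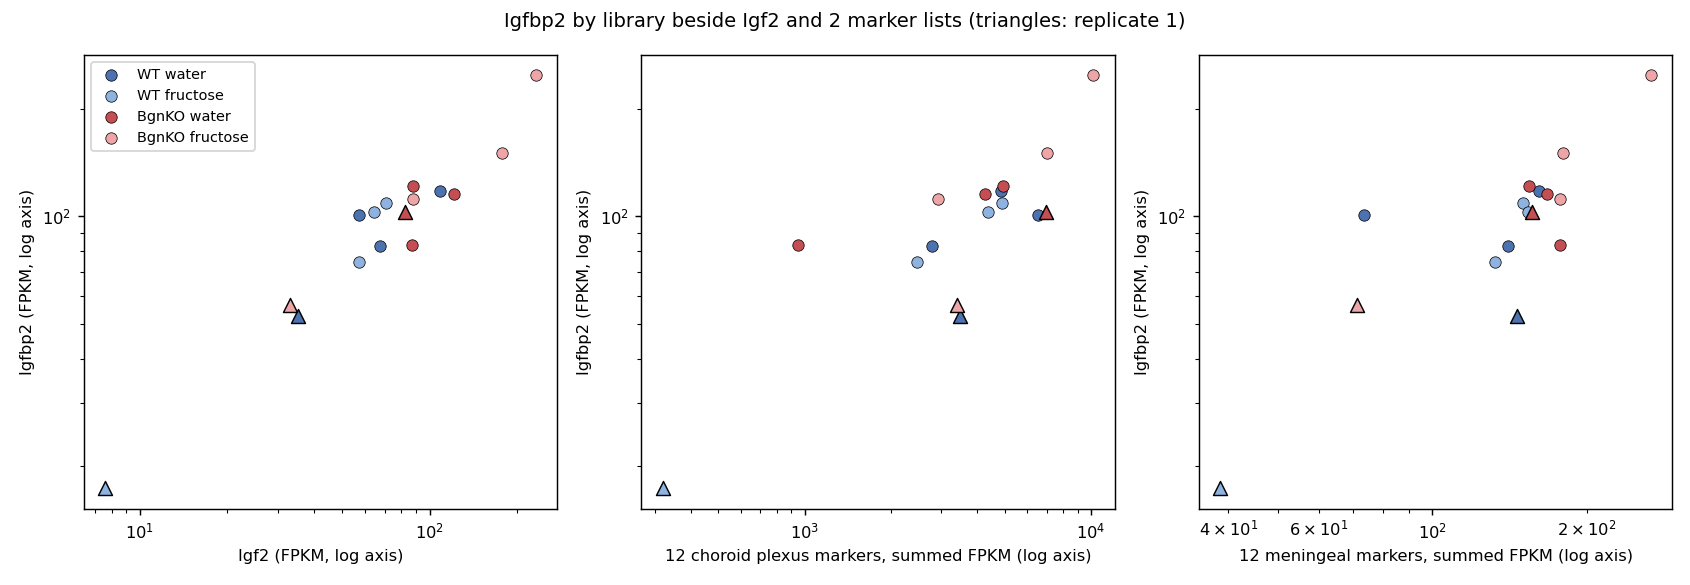
Igfbp2 in FPKM (vertical log axis) against Igf2, the sum of 12 choroid plexus markers and the sum of 12 meningeal and fibroblast markers in FPKM (horizontal log axes), 1 point per library. Triangles are replicate 1. WT fructose replicate 1 lies lowest in each panel (Igfbp2 17.3) and BgnKO fructose replicate 4 highest (Igfbp2 248).

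Igfbp5 lies 5457 bases from Igfbp2 on chromosome 1, on the other strand. Igfbp5, which binds IGFs and matrix, ranged from 42.3 to 72.8 FPKM. The 4 replicate 1 libraries, at 42.3 to 47.8 FPKM, were all below the other 12, at 48.9 to 72.8 FPKM. Such a split, in either direction, held for 21.1% of all tested genes. The log2 fold of Igfbp5 in BgnKO was 0.10 on water and 0.13 on fructose (95% interval -0.21 to 0.47, limma adjusted p = 0.681). Without the 2 libraries named above the Igfbp5 value on fructose was -0.06. Its Pearson correlation with Igfbp2 was 0.62 over the 16 libraries and 0.19 in replicates 2 to 4.

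Irs1, the second adaptor, split by replicate number and not by group. Its replicate 1 libraries were at 5.32 to 5.66 FPKM and the other 12 at 3.90 to 4.70 FPKM, with a ratio of means of 1.27. They did not overlap, as held in either direction for 21.1% of all tested genes. The Irs1 group means were 4.61 ± 0.74 (SD, n = 4) in WT on water and 4.36 ± 0.65 in WT on fructose. They were 4.70 ± 0.46 in BgnKO on water and 4.55 ± 0.57 in BgnKO on fructose. The log2 fold in BgnKO was 0.03 on water and 0.05 on fructose (95% interval -0.17 to 0.28, adjusted p = 0.818). Without BgnKO fructose replicate 1 the fructose value was -0.02. Within replicates 2 to 4 the SD of its log2 values was 0.06, against 0.10 for the median gene.

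Igf1, the ligand, was near the filter at 1.17 to 1.92 FPKM. It was at 1.68, 1.17, 1.48 and 1.43 FPKM in WT on water and at 1.34, 1.50, 1.28 and 1.49 FPKM in WT on fructose. In BgnKO it was at 1.92, 1.68, 1.57 and 1.43 FPKM on water and at 1.31, 1.63, 1.72 and 1.41 FPKM on fructose. The groups overlapped, with a log2 fold in BgnKO of 0.12 on water and 0.06 on fructose (adjusted p = 0.702).

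Igfbp4 and Igfbp6 had lower means in BgnKO on each drink, and neither passed the test. Without WT water replicate 3 both values on water were above 0, at 0.0083 and 0.00078. Igfbp4, which inhibits IGF action until it is cleaved by the protease PAPP-A, was at 37.7 to 53.4 FPKM in WT on water, 45.0 to 47.9 in WT on fructose, 40.8 to 46.4 in BgnKO on water and 37.8 to 48.8 in BgnKO on fructose. Its log2 fold in BgnKO was -0.04 on water and -0.08 on fructose (adjusted p = 0.689). Igfbp6, which prefers IGF2, was at 9.31 to 14.0 FPKM in WT on water, 8.59 to 15.8 in WT on fructose, 9.24 to 11.2 in BgnKO on water and 7.59 to 10.7 in BgnKO on fructose. Its log2 fold was -0.10 on water and -0.26 on fructose (95% interval -0.58 to 0.06, adjusted p = 0.339), or -0.44 on fructose without the 2 libraries named above (adjusted p = 0.180), and all 4 BgnKO fructose libraries were below the WT fructose mean of 11.9.

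Fructose itself moved none of the 10 genes past the threshold in limma, in either genotype or averaged, and none had an unadjusted p under 0.05 in these 3 comparisons. Over all tested genes 1 (0.00791%) was called in WT, 0 (0.0%) in BgnKO and 1 (0.00791%) averaged, while 263, 1630 and 1367 genes had an unadjusted p under 0.05. The log2 folds of fructose over water ran from -0.44 to 0.06 in WT and from -0.12 to 0.24 in BgnKO, and Igfbp2 was the gene farthest from 0 in both genotypes. Without WT fructose replicate 1 the WT value of Igfbp2 was 0.15, and without BgnKO fructose replicate 4 its BgnKO value was -0.09. For Irs2 the fold was 0.06 in WT (95% interval -0.11 to 0.24) and -0.12 in BgnKO (95% interval -0.30 to 0.05). The interaction of genotype and drink passed for 0 of the 10 genes in limma, with 0 at an unadjusted p under 0.05, and for 0.00791% of all genes. The 2 comparisons with BgnKO on fructose, and likewise the other pairs, share libraries and are not independent.

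Of 52 other genes of the pathway, 44 passed the filter. Below it were Igfbpl1, Igfals, Ins1, Insrr, Irs4, Pappa, Pappa2 and Socs3. Pik3r1, which encodes the regulatory subunit of phosphoinositide 3-kinase that docks on IRS proteins, was the only one of the 44 called, higher in BgnKO averaged over drinks. Over all tested genes 4.99% were called in that comparison, so 1 of 44 is not more than the background. It was at 21.7 to 23.5 FPKM in WT on water, 20.0 to 23.0 in WT on fructose, 25.4 to 28.1 in BgnKO on water and 23.1 to 27.9 in BgnKO on fructose. The genotypes did not overlap on either drink, as held for 4.01% of all tested genes on water and 11.0% on fructose. The averaged log2 fold was 0.24 (SE 0.05, 95% interval 0.13 to 0.34, adjusted p = 0.0110), and the adjusted p stayed between 0.00261 and 0.0263 over the alternatives run. By drink the log2 fold was 0.24 on water (adjusted p = 0.262) and 0.23 on fructose (adjusted p = 0.0711).

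Over these 44 genes 17 had higher and 27 lower averaged values in BgnKO, with a median log2 fold of -0.03 beside -0.01 over all tested genes. On each drink taken alone 0 of the 44 were called by limma, beside 0.387% of all genes on water and 3.76% on fructose. At an unadjusted p under 0.05 there were 2 of the 44 on water, beside 5.33% of all genes, and 11 on fructose, beside 21.3%, which is near the background on each drink. Rps6kb2, which encodes a kinase of ribosomal protein S6 downstream of mTOR, had an averaged log2 fold of -0.41 (SE 0.12, adjusted p = 0.0602), with all 8 BgnKO libraries below the mean of the 8 WT libraries. Pik3cd, a catalytic subunit of phosphoinositide 3-kinase, had -0.16 (adjusted p = 0.0795), and Igfbp3, a further binding protein, had 0.27 (adjusted p = 0.107). With a term for replicate 1, 8 of the 44 were called averaged over drinks, against 18.0% of all genes. Igf2, Pik3r1 and Ptpn11 were higher and Mtor, Pik3cd, Rps6kb2, Sh2b1 and Tsc1 lower. In replicates 2 to 4 alone 3 were called, Igf2, Pik3r1 and Sh2b1, against 12.6% of all genes. Fructose against water left 0 of the 44 called by limma in either genotype. At an unadjusted p under 0.05 there were 2 in WT, beside 2.08% of all genes, and 5 in BgnKO, beside 12.9%.

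Igf2, the second IGF, was above every member but Igfbp2 in mean FPKM, at 86.1, and is uncertain because its name covers 2 loci, which were summed. On fructose it was at 7.61, 70.8, 64.3 and 57.0 FPKM in WT and at 32.9, 177, 87.9 and 233 FPKM in BgnKO. Each replicate 1 was the lowest of its group. The log2 fold on fructose was 1.44 (SE 0.64, 95% interval 0.07 to 2.80, adjusted p = 0.209), with 0.0280 for a term for replicate 1, and without the 2 libraries it was 0.33 (adjusted p = 0.765). Ins2, an insulin gene, was at 0 to 3.50 FPKM and was listed at 0 in WT fructose replicate 1.

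**Figure D4:**
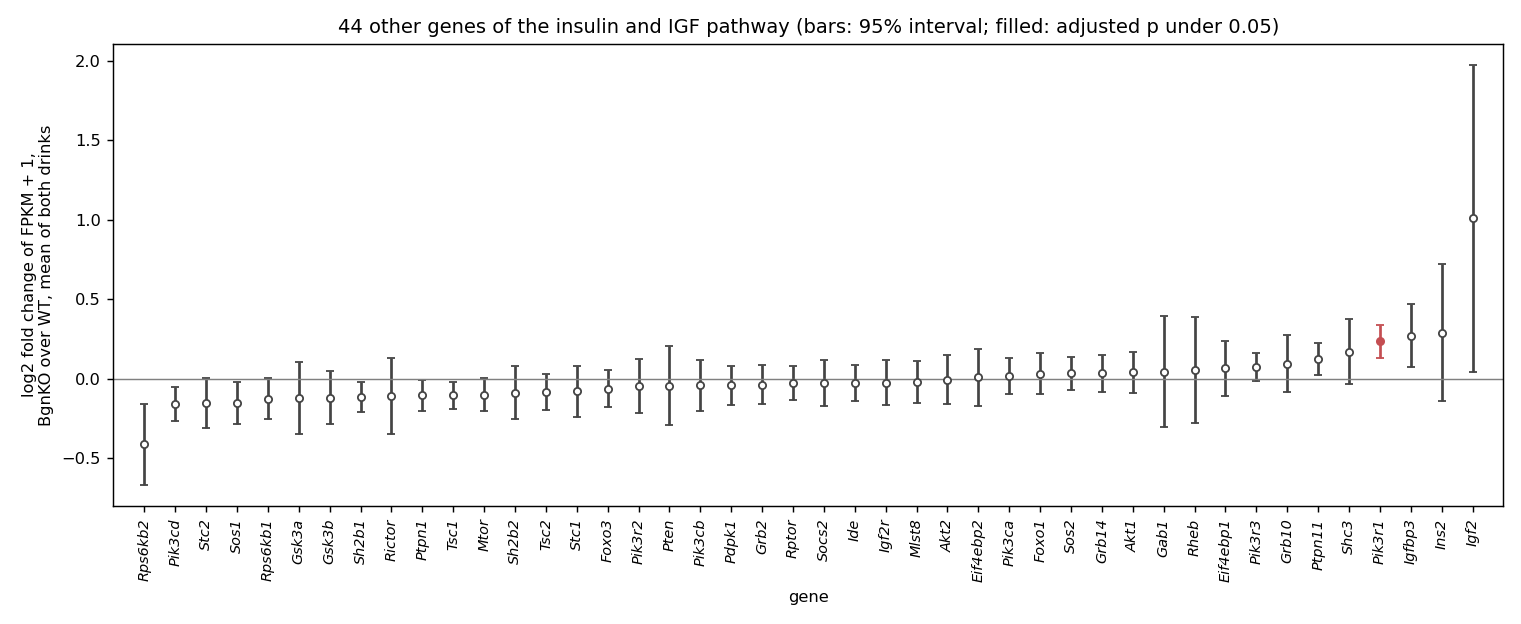
Log2 fold change of FPKM + 1, BgnKO over WT averaged over both drinks, for the 44 other pathway genes that passed the filter, in order of size with 95% intervals from limma. The filled point is Pik3r1 at 0.24, the only adjusted p under 0.05. Igf2 lies highest at 1.01 with the widest interval, and Rps6kb2 lowest at -0.41.

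The other genes had likeness partners as follows, each the highest Pearson correlation of log2 values over the 16 libraries among all tested genes, with the value in replicates 2 to 4 after it. For Irs2 it was Rundc1 (0.90, 0.91), for Igfbp7 the protease gene Ctsc (0.94, 0.94), for Igf1r the cholesterol exporter gene Abca1 (0.91, 0.92) and for Insr Arhgef18 (0.87, 0.89). For Igf1 it was the ephrin gene Efna5 (0.88, 0.83), for Igfbp5 Eogt (0.95, 0.92), for Igfbp6 Gcnt4 (0.84, 0.71) and for Igfbp4 Lingo3 (0.75, 0.85). Irs1 was most like an entry that joins Pura with a neighbour (0.96, 0.79). Within the set, Irs2 and Igfbp7 ran opposite (-0.65, and -0.72 in replicates 2 to 4), and Igfbp2 and Igfbp7 ran together (0.63 and 0.92). These are descriptions over libraries that share groups and the replicate 1 split.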

How the data were processed

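Per the labels' protocols, polyadenylated RNA of hippocampus was sequenced after random-hexamer priming. The values are the FPKM the authors deposited, 1 table of 27670 loci with 16 libraries. Per the submitters' processing notes the tools were TopHat, Bowtie, Cufflinks and Cuffdiff with build mm10. Versions and strand setting are not given in the sources used here. FPKM holds no depth, so no counting interval is given. Loci of 1 name were summed, and 4269 unnamed loci (46.8 to 70.4% of the FPKM of a library) were left out. The 4 group columns, the authors' values per group, were not used.

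Tests used limma 3.58.1 in R 4.3.3 with eBayes trended on mean expression, on log2(FPKM + 1), a pseudocount of 1, and genes averaging under 1 FPKM across the 16 libraries were left out. Fold changes are on that scale, which understates the change of low genes. The model had 4 group means, p-values were Benjamini-Hochberg adjusted over all 12648 genes, and the threshold was 0.05. The code was tested on simulated data. All 10 genes are named. Of the other pathway genes those called, and up to 6 of smallest p, could be named, and the most like genes are those of highest Pearson correlation, leaving out names of predicted genes. The members and lists were chosen with earlier results of these data known. Promoter sequences are from RefSeq (GRCm38.p6), matched by symbol for 9 of 10 genes, and positions from GENCODE on GRCm38, the assembly of mm10.

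Same-number libraries deviated together for fructose against water, with correlations of 0.118 to 0.699 in WT and 0.197 to 0.612 in BgnKO, so by the rule of all pairs over 0.1 these comparisons count as paired. Without replicate 1 the correlations were 0.003 to 0.135 and -0.042 to 0.314. The fructose folds and p-values given above are from the limma model without pairing. The replicate block changed no call of the 10 genes there, and 0 of them had an unadjusted p under 0.05. With the block, 3 of the 44 other pathway genes in WT and 14 in BgnKO had an unadjusted p under 0.05. Of these 44, 0 were called, and the share of all genes at that unadjusted p is not given here.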

Additional observations from a re-analysis of the deposited data

Results flagged for a closer look

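Irs1 in WT on fructose had 1 library far from the others. Replicate 1 was at 5.33 FPKM and the other 3 were at 3.98 to 4.07 FPKM, so the gap took 0.932 of the group's range (Dixon's ratio). Igf2 in BgnKO on water had replicate 2 at 121.6 FPKM and the others at 82.0 to 87.7 FPKM, a ratio of 0.856. The Irs1 value is part of the replicate 1 split described above. Of 52 groups of 4 libraries looked at, these 2 stood out. Chance alone marks about 1 in 20, so 2 of 52 is not more than that. The 52 do not cover every gene named here, and the count holds for them alone. Among values not flagged, Bgn in BgnKO on water had replicate 1 at 4.46 FPKM and the others at 7.19 to 7.60 FPKM. Ptpn11 in WT on fructose had replicate 1 at 34.4 FPKM and the others at 31.2 to 31.4 FPKM.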

How the results depend on the processing

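The number of the 10 genes called in BgnKO against WT was 1 on fructose and 1 averaged over drinks. It was 2 and 4 with a term for replicate 1, 2 and 4 in replicates 2 to 4 alone, and 3 and 4 with the replicate block. It was 0 on fructose without WT fructose replicate 1 and BgnKO fructose replicate 4, and 0 with only the 2 groups compared, which was not run for the interaction and the averages. Leaving out 1 library gave 0 to 2 on fructose and 0 to 4 averaged. The other 5 counts stayed at 0 under each alternative run. For genotype the block is not backed by a pairing: on water the same-number correlations ran from -0.04 to 0.689, on fructose from 0.087 to 0.75, and 2 and 5 of 8 libraries were closest to their own number. Over all genes the block took the calls on fructose from 475 to 2483.

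Of 1140 fold values under alternatives, 1080 kept direction and side of the threshold, 29 newly passed, 18 no longer passed and 13 changed sign, all 13 in folds that did not pass. Leaving out 1 library, or both of those 2, Irs1 ran from -0.035 (WT water replicate 3) to 0.11 on water, also below 0 at -0.023 without BgnKO water replicate 1, and from -0.017 (BgnKO fructose replicate 1) to 0.17 on fructose. Igfbp4 on water ran from -0.13 to 0.034 (WT water replicate 4), also above 0 at 0.0083 without WT water replicate 3. Igfbp5 ran from -0.017 (BgnKO water replicate 4) to 0.23 on water and from -0.057 to 0.25 on fructose, the lower value without WT fructose replicate 1 and BgnKO fructose replicate 4. Igfbp6 on water ran from -0.18 to 0.00078 (WT water replicate 3). Igfbp2 ran from -0.24 to 1.06 for the interaction, from -0.71 to 0.15 for fructose in WT and from -0.088 to 0.62 for fructose in BgnKO. The values of changed sign (-0.24, 0.15 and -0.088) came without that pair of libraries, for WT also without WT fructose replicate 1 alone and for BgnKO also without BgnKO fructose replicate 4 alone. The causes were not tested. The depth behind the values is unknown, which matters most for Igf1 near 1 FPKM.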
